A study of Rattus norvegicus with 20 samples.

Results

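The SLC25 family are the mitochondrial carriers, and 43 of the 30560 genes measured belong to it. They were taken as the protein-coding genes whose symbol is Slc25a followed by a number. Of 45 symbols of that form, Slc25a33 and Slc25a52 carry the biotype pseudogene in the deposited annotation and were left out. The levels come from poly-A RNA of renal cortex and of left ventricle from 10 male rats, described as hypertensive and as wild type, with no strain named. All of them received a blood pressure telemeter at 8 weeks of age and then ate food with 4% NaCl for 3 weeks. During that time a subcutaneous osmotic minipump gave 5 rats (RB030 to RB034) vehicle and 5 rats (RB035 to RB039) Maresin 1 (MaR1), which is a lipid mediator derived from docosahexaenoic acid. The dose was up to 1.3 µg/kg/day. With both organs taken from every animal there were 20 libraries, 5 in each of 4 groups, and no group ate a normal-salt diet.

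Mitochondrial carriers are small proteins of the inner mitochondrial membrane, which is otherwise closed to most charged metabolites. A carrier typically moves 1 substrate or a few related ones, often in exchange for another: ADP for ATP, malate for phosphate, aspartate for glutamate, acylcarnitine for carnitine. Heart muscle draws most of its ATP from fatty acid oxidation. The proximal tubule of the kidney cortex is also rich in mitochondria and in addition makes glucose, ammonium, arginine and creatine precursors. The pathways to glucose and ammonium cross the inner membrane through carriers.

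The promoters of Slc25a4, Slc25a5 and Slc25a10 are shown because these genes are the most abundant carrier of the heart, the most abundant carrier of the kidney, and the carrier with the second largest difference in favour of the kidney. RefSeq (GRCr8) held a promoter for 36 of the 43 genes, in 38 windows. Each line gives the 250 bases before the annotated start, 5′ to 3′ on the gene's strand. Capitals mark matches, on either strand, to 4 motifs, and no marked matches overlap. The TATA box core was searched for as the letters TATAA. A GC box was searched for as GGGCGG and the CCAAT box by the letters of its name. The cAMP response element was searched for as TGACGTCA.
Slc25a4, GRCr8 chr16:52805271-52805520, plus strand: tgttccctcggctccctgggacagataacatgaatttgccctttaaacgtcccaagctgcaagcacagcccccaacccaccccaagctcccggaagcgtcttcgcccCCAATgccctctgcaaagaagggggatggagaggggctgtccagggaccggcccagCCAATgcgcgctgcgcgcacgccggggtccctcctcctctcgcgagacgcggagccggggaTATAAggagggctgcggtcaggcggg
Slc25a5, GRCr8 chrX:120897366-120897615, plus strand: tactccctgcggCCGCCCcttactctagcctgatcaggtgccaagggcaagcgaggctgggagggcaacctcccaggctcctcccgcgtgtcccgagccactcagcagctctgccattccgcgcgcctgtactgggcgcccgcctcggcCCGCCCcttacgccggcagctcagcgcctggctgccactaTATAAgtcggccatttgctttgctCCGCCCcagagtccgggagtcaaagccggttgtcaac
Slc25a10, GRCr8 chr10:106264146-106264395, plus strand: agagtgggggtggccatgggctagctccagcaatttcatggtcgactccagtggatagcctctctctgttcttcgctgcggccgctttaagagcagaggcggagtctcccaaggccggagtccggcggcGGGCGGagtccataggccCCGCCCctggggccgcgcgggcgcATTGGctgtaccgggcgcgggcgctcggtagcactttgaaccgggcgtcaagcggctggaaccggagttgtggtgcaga

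The Slc25a4 window held 1 TATA box core and 2 CCAAT boxes and no GC box. The Slc25a5 window held 1 TATA box core and 3 GC boxes and no CCAAT box. That of Slc25a10 held 1 CCAAT box and 2 GC boxes and no TATA box core, and none of the 3 held the cAMP response element. Across the carriers, a CCAAT box was present in 50.0% of the 38 windows and in 34% of the 33469 windows of the whole RefSeq table. A GC box was present in 50.0% against 30.5%, and a TATA box core in 10.5% against 24%. The median GC content was 56.2% in the carrier windows and 51.2% in all windows. These are letter matches, given as a description.

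The carrier genes lie on 15 chromosomes, with 5 of them on chromosome 10, among them Slc25a10 and Slc25a11. By the coordinates of the deposited table, of unstated genome build, 4 pairs are neighbours. Slc25a43 and Slc25a5 lie on chromosome X with 20597 bases between them, and Slc25a41 and Slc25a23 lie on chromosome 9 with 1196 bases between them. The neighbours differ in level: Slc25a23 averaged 85.5 FPKM in the kidney while Slc25a41 had 3 fragments over all 10 kidney libraries. FPKM is the number of fragments of a gene scaled to its length and to the size of the library, so levels of different genes can be set side by side. The library size used by the authors was not the total of assigned fragments. It was above that total in every kidney (3.49e+07 against 27365595 in RB030) and below it in every heart (1.97e+07 against 24066566 in RB039). Levels set against each other between organs depend on this scaling.

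The libraries held 19383232 to 30342034 assigned fragments, and 1 FPKM of a gene of 1 kb stood for 19.74 to 34.94 fragments. The organ labels matched the content, since 7 cardiomyocyte markers summed to 11720 to 20300 FPKM in hearts and to at most 1.465 FPKM in kidneys. For 8 markers of the proximal tubule the sum was 4117 to 8617 FPKM in kidneys and 2.707 to 61.6 FPKM in hearts. Some libraries stood apart within an organ. The kidney of RB039 had a sum of 518.7 FPKM over 7 white adipocyte markers and that of RB036 69.57 FPKM, against 11.44 to 33.96 FPKM in the other kidneys. The kidney of RB030 had the lowest proximal tubule sum, 4117 FPKM against 6256 to 8617 FPKM. The 6 atrial markers summed to 387.4 to 10120 FPKM in hearts labelled as left ventricle, with the highest sums in RB033, RB035 (5496 FPKM) and RB034 (5375 FPKM).

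Carrier transcripts were abundant in both organs but were made up differently. The phosphate carrier Slc25a3 is not analysed here, and it is in none of the sums, shares and ranks that follow. Summed over the 43 genes, they reached 1743 ± 177 FPKM in the kidney and 3815 ± 751 FPKM in the heart (SD, n = 10). A single gene, the adenine nucleotide translocase Slc25a4, made up 76.3% of the heart's sum and 9.77% of the kidney's. In the kidney the leading gene was its paralogue Slc25a5, with 34.8% of the sum against 4.58% in the heart. Without these translocases the sum over the other genes was higher in the kidney, at 966.5 ± 109 FPKM, than in the heart, at 723.7 ± 108 FPKM. Both comparisons of sums between organs rest on the authors' library sizes. The kidney's 5 most abundant carriers were Slc25a5, Slc25a4, Slc25a10, Slc25a11 and Slc25a23, and the heart's were Slc25a4, Slc25a11, Slc25a5, Slc25a20 and Slc25a39.

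**Figure D1:**
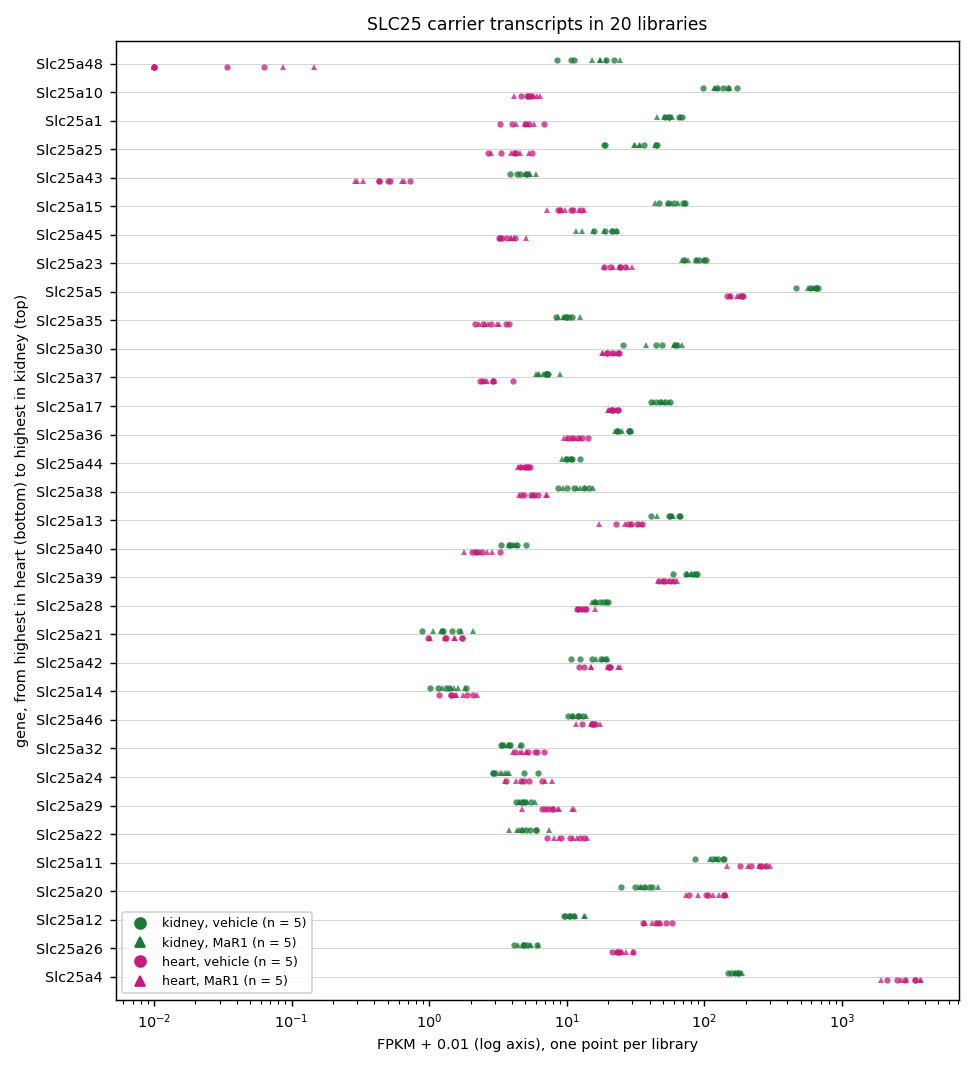
FPKM plus 0.01 of 33 carrier genes (log axis), 1 point per library, with kidneys in green and hearts in pink, circles for vehicle and triangles for MaR1, ordered by the difference between organs. Slc25a4 lies between 1918 and 3753 FPKM in hearts and between 148.2 and 186.6 FPKM in kidneys, while Slc25a48 is near 0 in hearts.

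Of the 43 genes, 34 had a mean of at least 1 FPKM and were tested between organs. For each gene the difference is that of log2(FPKM + 0.5), kidney minus heart, which understates the change of genes at low level. The test was limma's moderated test, adjusted by the Benjamini-Hochberg method over 12984 genes. The transcripts of 31 of the 34 carriers (91.2%) differed, against 84.6% of all genes tested, a share close to the background. Higher in the kidney were 20 (58.8%, against 43.6% of all genes), and higher in the heart were 11 (32.4%, against 41%). Differences of at least 2-fold were found for 20 carriers (58.8%, against 36.9% of all genes), of which 16 were higher in the kidney (47.1%, against 18.4%) and 4 in the heart (11.8%, against 18.5%). All 10 libraries of an organ lay apart from all 10 of the other for 24 carriers (70.6%, against 56.9%). The median difference was 0.83 on the log2 scale over the carriers and 0.02 over all genes. With libraries scaled to their total fragments instead, the median over all genes moved to 0.35, and 22 of 30 called carriers were higher in the kidney, against 7440 of 11179 called genes (5657 of 10983 in the main analysis). In whole tissue, fewer cells of a type and less RNA per cell cannot be told apart.

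Slc25a48 and Slc25a43 passed the level filter through the kidney only and therefore had to differ, so their place in the counts says nothing further. The other 32 had means of at least 1 FPKM in both organs, and 29 of them were called (90.6%, against 82.1% of the 10987 genes at that level in both).

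**Figure D2:**
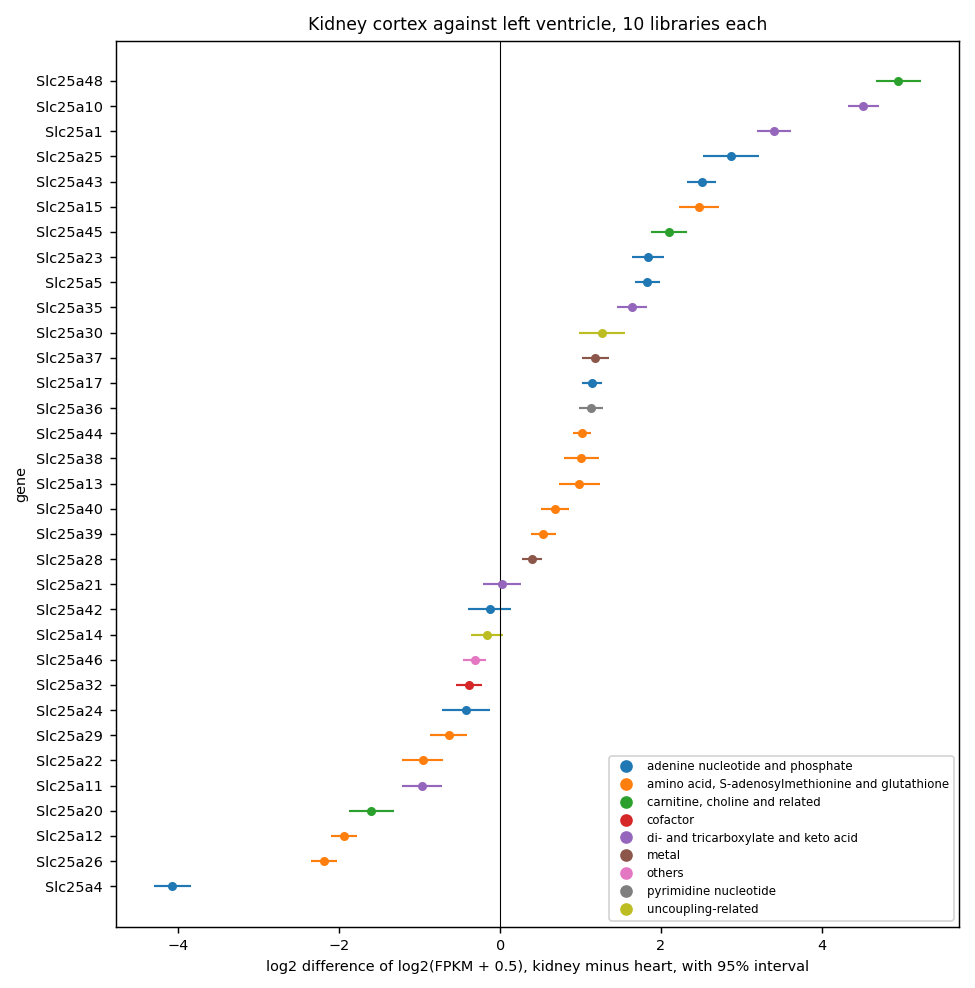
Difference of log2(FPKM + 0.5), kidney minus heart, for 33 of the 34 carriers tested, with the 95% interval from limma and colours by transported substrate. Slc25a48 (4.95), Slc25a10 (4.51) and Slc25a1 (3.40) lie farthest to the kidney side and Slc25a4 (-4.07) farthest to the heart side.

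Carriers of adenine nucleotides and phosphate formed the largest share of the sum in both organs, 55.7% in the kidney and 82.8% in the heart. Of 8 tested, 5 were higher in the kidney, 2 in the heart, and Slc25a42, a carrier of coenzyme A, did not pass the test. Slc25a4, the translocase typical of heart and skeletal muscle, had a lowest, median and highest level of 1918, 2879 and 3753 FPKM in hearts. In kidneys these were 148.2, 170.5 and 186.6 FPKM, so every heart was above every kidney. Its mean was 17.2 times higher in the heart (log2 difference -4.07 ± 0.11 (SE), adjusted p = 5.3e-18). Slc25a5, the translocase of growing and epithelial cells, showed the opposite order. It had 459.8, 622.6 and 667.7 FPKM in kidneys and 145.4, 175.6 and 191.9 FPKM in hearts (lowest, median and highest), without overlap (log2 difference 1.83 ± 0.07, adjusted p = 3.97e-15). The 10 genes described in the deposited annotation as like Slc25a5 together had 3.29% (kidney) and 3.52% (heart) of its FPKM, so reads may be shared with it.

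As a share of the pair, Slc25a4 took 20.6 to 24.4% of the summed FPKM of Slc25a4 and Slc25a5 in kidneys and 91.7 to 95.4% in hearts. The highest kidney share was that of RB030 and the lowest heart share that of RB035. Slc25a31, the translocase of the germ line, had 0 fragments in all 20 libraries, which allows up to 0.00843 FPKM over the kidneys and 0.0106 FPKM over the hearts (a floor of 3 fragments, counting error only).

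The ATP-Mg/phosphate carriers, which are set by calcium and adjust the matrix pool of adenine nucleotides, divided between the organs. Slc25a23 had 68.61, 87.32 and 103.0 FPKM in kidneys and 18.54, 24.15 and 30 FPKM in hearts (lowest, median and highest). Slc25a25 had 18.67, 33.87 and 44.94 FPKM in kidneys and 2.658, 4.176 and 5.62 FPKM in hearts. Both were higher in the kidney in every library, by 1.84 ± 0.10 and 2.87 ± 0.17 on the log2 scale. Slc25a24 was higher in the heart on average (5.23 ± 1.42 against 3.75 ± 1.04 FPKM, SD, n = 10), with overlap (log2 difference -0.42 ± 0.14, adjusted p = 0.0106). That call was lost with vehicle libraries alone (adjusted p = 0.161), with total fragment scaling (adjusted p = 0.587) and without the hearts of RB033, RB034 and RB035 (adjusted p = 0.0877). Slc25a24 thus made up 6.03 to 24.5% of the pair with Slc25a25 in kidneys and 44 to 73.5% in hearts.

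Slc25a17, a carrier of peroxisomes rather than mitochondria, was higher in the kidney (48.8 ± 5.16 against 21.8 ± 1.39 FPKM), as was Slc25a43, whose substrate is not established. Slc25a43 ranged from 3.876 to 5.952 FPKM in kidneys and from 0.2776 to 0.7218 FPKM in hearts.

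**Figure D3:**
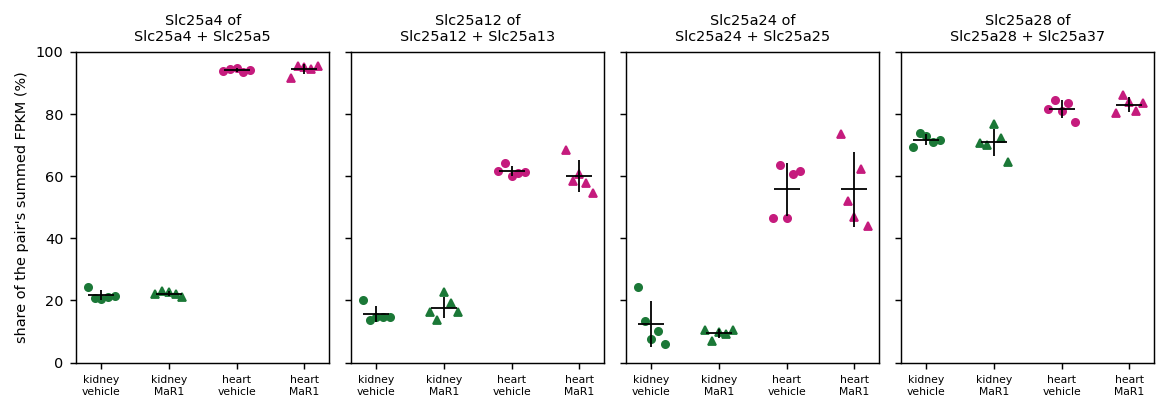
Share of the first gene in the summed FPKM of 4 pairs with a common substrate, by group of 5 libraries (points), with the group mean and SD (black). The Slc25a4 share is 20.6 to 24.4% in kidneys and 91.7 to 95.4% in hearts, and MaR1 and vehicle overlap in every panel.

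The carriers of di- and tricarboxylates made up 18.4% of the sum in the kidney and 6.62% in the heart. Of 5 tested, 3 were higher in the kidney and 1 in the heart. Slc25a10, which exchanges malate or succinate for phosphate, had 97.52, 131.1 and 172.6 FPKM in kidneys and 4.109, 5.389 and 6.356 FPKM in hearts (lowest, median and highest). Its kidney mean was 25 times the heart mean (log2 difference 4.51 ± 0.09, adjusted p = 4.99e-20). Slc25a1, which exports citrate for lipid synthesis, was 11.5 times higher in the kidney (56.8 ± 7.79 against 4.95 ± 0.98 FPKM, log2 difference 3.40 ± 0.10, adjusted p = 2.74e-17). Slc25a35, whose substrate is less well known, was higher in the kidney by 1.64 ± 0.09 on the log2 scale.

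Slc25a11, the oxoglutarate/malate carrier of the malate-aspartate shuttle, went the other way. It had 146.9, 252.6 and 298.2 FPKM in hearts and 85.63, 121.2 and 138.2 FPKM in kidneys (lowest, median and highest), without overlap (log2 difference -0.97 ± 0.12, adjusted p = 2.08e-07). Slc25a21, which carries oxoadipate, did not pass the test (1.37 ± 0.35 FPKM in the kidney and 1.34 ± 0.28 FPKM in the heart, log2 difference 0.02, 95% interval -0.21 to 0.26).

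Among the carriers of amino acids, S-adenosylmethionine and glutathione, 6 of 10 tested were higher in the kidney and 4 in the heart. The aspartate/glutamate carriers, the other arm of the malate-aspartate shuttle, were divided. Slc25a12 (aralar) had 35.52, 44.76 and 58.14 FPKM in hearts and 9.459, 10.93 and 13.65 FPKM in kidneys (lowest, median and highest), and its log2 difference was -1.94 ± 0.08 (adjusted p = 4.73e-15). Slc25a13 (citrin) had 40.88, 57.45 and 66.82 FPKM in kidneys and 17.1, 29.24 and 35.05 FPKM in hearts, and its log2 difference was 0.99 ± 0.12 (adjusted p = 2.5e-07). The Slc25a12 share of the pair was 13.8 to 22.6% in kidneys and 54.4 to 68.3% in hearts.

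Slc25a15, the ornithine carrier, was 5.75 times higher in the kidney (59.6 ± 10.3 against 10.4 ± 2.01 FPKM). Its paralogue Slc25a2 had 0 fragments in all 20 libraries. Slc25a26, which brings S-adenosylmethionine into the matrix, was 4.91 times higher in the heart, with 21.33 to 30.52 FPKM in hearts and 4.101 to 6.191 FPKM in kidneys (log2 difference -2.19 ± 0.08, adjusted p = 3.8e-16). The glutamate carrier Slc25a22 (10.6 ± 2.33 against 5.18 ± 1.03 FPKM) and the basic amino acid carrier Slc25a29 (8.08 ± 1.97 against 4.90 ± 0.50 FPKM) were also higher in the heart, each with overlap between organs. Slc25a18, the other glutamate carrier, had 8 fragments over all kidneys and 17 over all hearts.

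The kidney held more of the branched-chain amino acid carrier Slc25a44 (log2 difference 1.02 ± 0.05) and the glycine carrier Slc25a38 (1.01 ± 0.10). Differences were smaller for the glutathione carriers Slc25a39 (0.54 ± 0.07) and Slc25a40 (0.68 ± 0.08). Slc25a39 was the predominant gene of that pair in both organs, at 95% of the pair in the kidney and 95.7% in the heart.

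The carriers of carnitine and choline were divided as well, with Slc25a45 and Slc25a48 higher in the kidney and Slc25a20 in the heart. Slc25a20, which exchanges acylcarnitine for carnitine in fatty acid oxidation, had 73.81, 111.0 and 144.0 FPKM in hearts and 24.87, 35.54 and 46.35 FPKM in kidneys (lowest, median and highest). It was 3.10 times higher in the heart (log2 difference -1.60 ± 0.13, adjusted p = 5.87e-10). Slc25a48, a carrier linked to choline uptake, had 8.52 to 24.54 FPKM in kidneys. In hearts it had 11 fragments in all, in 4 of 10 libraries, against 8606 fragments in kidneys. Slc25a45 was higher in the kidney as well (18.2 ± 4.05 against 3.80 ± 0.58 FPKM).

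The remaining groups were small. Slc25a32, a carrier of folate and FAD, was higher in the heart by 0.39 ± 0.08 on the log2 scale. Slc25a46, a protein of the outer membrane with a role in mitochondrial dynamics, was also higher in the heart (log2 difference -0.31 ± 0.07). With total fragment scaling Slc25a32 (adjusted p = 0.345) and Slc25a46 (adjusted p = 0.584, with its sign turned) were no longer called, while Slc25a42 (adjusted p = 0.0414, sign turned) and Slc25a21 (adjusted p = 0.0126) were. Both iron carriers, the mitoferrins Slc25a28 and Slc25a37, were higher in the kidney, by 0.40 ± 0.06 and 1.19 ± 0.08 on the log2 scale. Slc25a36, a pyrimidine nucleotide carrier, was 2.23 times higher in the kidney. The uncoupling-related Slc25a30 was 2.51 times higher there, at 53.3 ± 13.8 against 21.2 ± 2.23 FPKM, while the related Slc25a14 (1.43 ± 0.27 against 1.66 ± 0.32 FPKM) did not pass the test.

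Slc25a6, Slc25a27, Slc25a47, Slc25a53, Slc25a18, Slc25a41, Slc25a54, Slc25a31 and Slc25a2 did not reach the level for testing, with at most 0.5385 FPKM in any library. Slc25a33, left out as a pseudogene by its biotype, had 9.09 ± 1.31 FPKM in the kidney and 9.63 ± 1.74 FPKM in the heart (SD, n = 10). Slc25a16, Slc25a34 and Slc25a51 are not analysed here.

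Genes that work beside the carriers were divided between the organs as well. Their counts stand against 43.6% of all genes tested that were higher in the kidney and 41% that were higher in the heart. Of 5 carriers of the same fold with other symbols, 0 were higher in the kidney and 4 in the heart, among them the uncoupling protein Ucp2 (27.2 ± 6.46 against 193 ± 29.4 FPKM). Among these 4, Ucp3 passed the level filter through the heart only and therefore had to differ. Ucp1, which was not called, passed it through the kidney of RB039 (106.1 FPKM). Of 22 other mitochondrial transport genes tested, 8 were higher in the kidney and 9 in the heart, with the serine transporter Sfxn1 at 82.1 ± 12.8 FPKM in the kidney and 4.17 ± 0.98 FPKM in the heart and the outer membrane channel Vdac3 at 47.5 ± 3.40 and 174 ± 31.1 FPKM (SD, n = 10). Of 31 enzymes tested that supply or use the carried substrates, 14 were higher in the kidney and 16 in the heart. The choline dehydrogenase Chdh, which uses choline inside mitochondria, had 113 ± 22 FPKM in the kidney and 0.184 ± 0.098 FPKM in the heart. Like Slc25a48 it passed the level filter through the kidney only, so the direction shared by both genes was fixed by the filter. Of the mitochondrial creatine kinases, Ckmt1 was at 20.3 ± 2.59 and 0.0737 ± 0.054 FPKM and Ckmt2 at 0.00119 ± 0.0038 and 674 ± 166 FPKM (kidney and heart). Chdh and Ckmt1 passed the level filter through the kidney only and Ckmt2 through the heart only. They therefore had to differ, and their place in the enzyme counts says nothing further. Of 9 regulators of mitochondrial genes, 2 were higher in the kidney, among them the coactivator Ppargc1a (13.3 ± 2.56 against 7.70 ± 1.84 FPKM), and 4 in the heart, among them the fatty acid receptor Ppard (5.98 ± 0.46 against 23.5 ± 4.00 FPKM).

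The carriers tended to be low in the same libraries of an organ. Among the 34 carriers tested in the kidney, 20 had their lowest value in RB030 (58.8%, against 28.0% of all genes tested there). These include Slc25a5 (459.8 FPKM against 563.8 to 667.7 FPKM in the others), Slc25a10 (97.52 against 117.0 to 172.6 FPKM) and Slc25a11 (85.63 against 110.1 to 138.2 FPKM). That kidney also had the lowest proximal tubule sum, and the part of this in the low carrier values was not tested. In the heart, 16 of 32 carriers were lowest in RB035 (50.0%, against 20.1% of genes) and 6 in RB033 (18.8%, against 8.14%), while 11 were highest in RB039 (34.4%, against 14.4%). Slc25a4 was at 1918 FPKM in RB035, 2111 FPKM in RB033 and 3753 FPKM in RB039, whose atrial sums were 5496, 10120 and 387.4 FPKM. The cardiomyocyte marker sums of the same hearts were 11720, 13060 and 20300 FPKM, in the same order as Slc25a4. The part of atrial tissue or of cardiomyocyte content in these values was not tested. Without the hearts of RB033, RB034 and RB035, 30 of the 31 carriers called between organs were called again, 20 of them higher in the kidney. Slc25a24 was no longer called and Slc25a14 (adjusted p = 0.0368) was, so that 31 of 34 passed (91.2%, against 83.9% of all genes). Atrial sums in the hearts kept still ran from 387.4 to 3314 FPKM.

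MaR1 was next compared with vehicle in each organ. In the kidney, the transcripts of 0 of 34 carriers passed the threshold, as did 0.0% of 12446 genes (limma, each organ alone). At an unadjusted p of 0.05, 2 carriers were below it (5.88%, against 6.75% of all genes), and limma voom on recovered fragments also called 0. Positive differences were found for 23 of 34 (67.6%, against 50.0% of all genes), within a range of -0.31 to 0.45 on the log2 scale. The median difference over the carriers was 0.0334. Without RB030, the vehicle animal whose kidney held the lowest value of many carriers, this median was -0.021 (-0.016 over all genes). Leaving out any other animal gave carrier medians of 0.0155 to 0.077. In 0 carriers did the 5 MaR1 kidneys lie apart from the 5 vehicle kidneys, against 1.23% of all genes. The median half-width of the 95% intervals was 0.25 on the log2 scale.

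**Figure D4:**
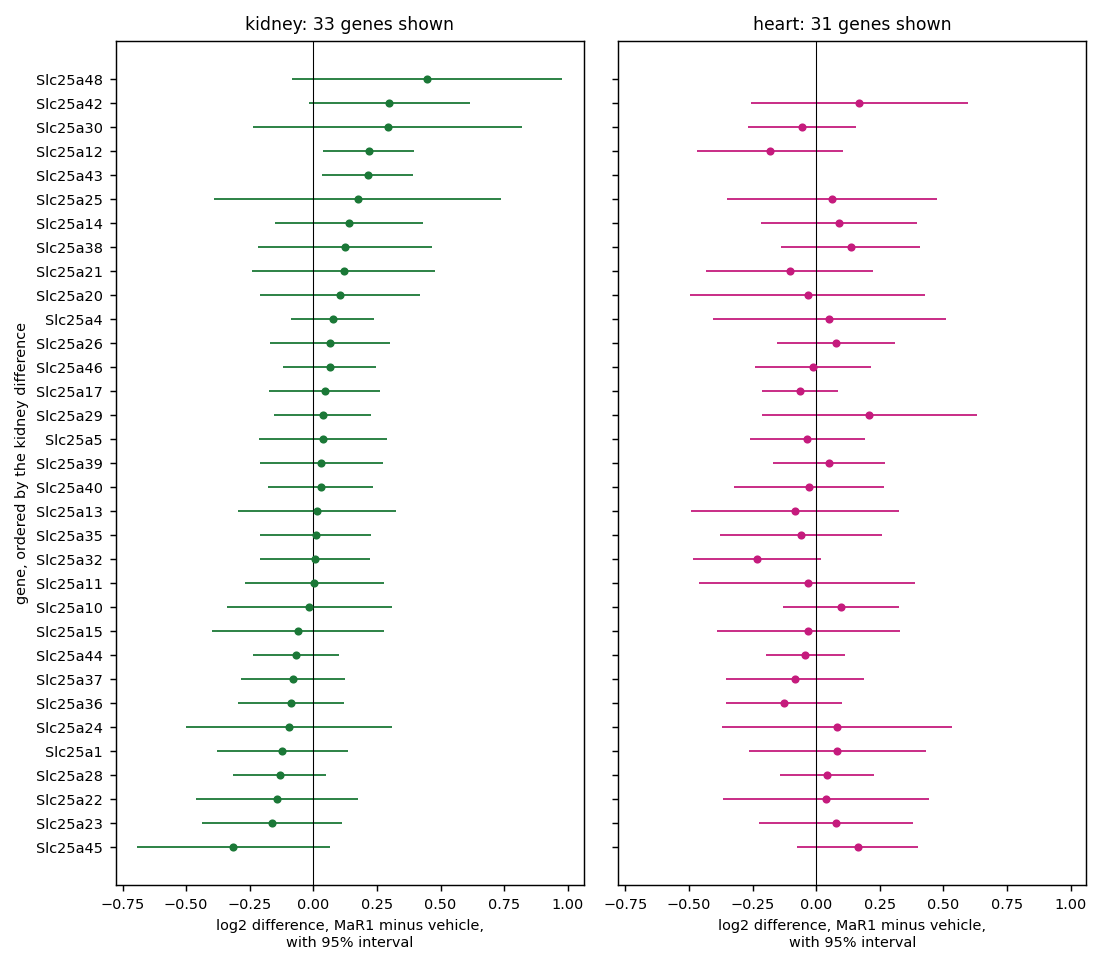
Difference of log2(FPKM + 0.5), MaR1 minus vehicle, with the 95% interval from limma, for 33 of 34 carriers in the kidney (left) and 31 of 32 in the heart (right), in the order of the kidney. Differences range from -0.31 to 0.45 in the kidney and from -0.23 to 0.21 in the heart, and only the intervals of Slc25a12 and Slc25a43 in the kidney leave out 0.

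Markers of tissue other than cortex moved with the groups in the kidney. The 6 inner medulla markers summed to 2.078 to 5.254 FPKM in vehicle kidneys and 7.083 to 35.95 FPKM in MaR1 kidneys, with no marker at 0 throughout either group. The 7 white adipocyte markers summed to 11.44 to 24 FPKM and 28.69 to 518.7 FPKM, with Lep at 0 in all vehicle kidneys, and the 6 urothelium markers to 0.2426 to 4.052 FPKM and 0.4819 to 86.72 FPKM. Their part in the carrier differences was not tested.

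The smallest p in the kidney was that of Slc25a12. Its levels were 10.34, 10.54, 9.459, 9.67 and 11.32 FPKM with vehicle and 11.2, 10.67, 13.28, 13.65 and 11.43 FPKM with MaR1 (rats in numerical order). The MaR1 kidneys of RB037 and RB038 were the highest, and they also had the highest inner medulla sums (35.95 and 24.08 FPKM), whose part in this was not tested. The vehicle kidney of RB034 lay above 2 MaR1 kidneys. The log2 difference was 0.22 (95% interval 0.04 to 0.40, adjusted p = 0.705).

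Slc25a43 had 3.876, 5.159, 4.342, 5.064 and 4.556 FPKM with vehicle and 5.952, 5.31, 5.334, 4.971 and 5.395 FPKM with MaR1. Only RB038 among the MaR1 kidneys lay within the vehicle range (log2 difference 0.21, 95% interval 0.04 to 0.39, adjusted p = 0.708). For Slc25a48 the levels were 8.52, 21.98, 10.75, 11.23 and 19.15 FPKM with vehicle and 17.37, 17.55, 19.15, 24.54 and 15.17 FPKM with MaR1. The vehicle kidneys fell into 3 low and 2 high values, and its log2 difference of 0.45 had a 95% interval from -0.08 to 0.98 (adjusted p = 0.758).

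Slc25a45 had 15.82, 21.34, 21.37, 19.02 and 22.69 FPKM with vehicle and 15.4, 18.77, 11.73, 12.95 and 23.05 FPKM with MaR1. The MaR1 kidneys of RB036 and RB039, which had the most adipocyte marker RNA, held the highest values of their group (log2 difference -0.31, 95% interval -0.69 to 0.07, adjusted p = 0.758). Without these kidneys the difference was -0.57 (95% interval -0.86 to -0.27, adjusted p = 0.0595), and 283 of 12456 genes (2.27%) were then called but 0 of 34 carriers. At an unadjusted p of 0.05 there were then 5 carriers (14.7%, against 15.5% of all genes): Slc25a45, Slc25a37, Slc25a22, Slc25a12 and Slc25a23. The kidneys of RB036 and RB039 also had the lowest inner medulla sums of the MaR1 group, 12.34 and 7.083 FPKM. The MaR1 kidneys kept had 14.79 to 35.95 FPKM, against 2.078 to 5.254 FPKM in vehicle kidneys. The part of adipose tissue or of inner medulla in these values was not tested. The mean of Slc25a42 was 15.1 ± 3.59 FPKM in vehicle kidneys and 18.3 ± 1.29 FPKM in MaR1 kidneys (SD, n = 5, adjusted p = 0.753).

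The abundant translocases did not pass the test either. In the kidney the log2 difference was 0.08 (95% interval -0.09 to 0.24) for Slc25a4 and 0.04 (-0.22 to 0.29) for Slc25a5. In the heart it was 0.05 (-0.41 to 0.51) for Slc25a4 and -0.04 (-0.26 to 0.19) for Slc25a5. The summed level of all carriers was 1733 ± 242 FPKM with vehicle and 1753 ± 111 FPKM with MaR1 in the kidney, and 3748 ± 667 and 3882 ± 902 FPKM in the heart (SD, n = 5).

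In the heart, 0 of 32 carriers passed the threshold, as did 0.0% of 12237 genes. At an unadjusted p of 0.05 there were 0 carriers (4.6% of all genes), and voom also called 0. Differences were positive for 16 of 32 carriers (50.0%, against 54.2% of all genes), and MaR1 hearts lay apart from vehicle hearts for 0 carriers (0.842% of all genes). The smallest p was that of Slc25a32, with 5.224, 6.874, 6.03, 4.222 and 5.821 FPKM with vehicle and 4.685, 4.562, 5.026, 4.026 and 5.108 FPKM with MaR1. In these hearts the proximal tubule sum was 2.707 to 12.79 FPKM with vehicle and 9.451 to 61.6 FPKM with MaR1, and its part was not tested. The groups of Slc25a32 overlapped through the low vehicle heart of RB033 (log2 difference -0.23, 95% interval -0.48 to 0.02, adjusted p = 1). Next by p were Slc25a45 (0.16), Slc25a12 (-0.18), Slc25a36 (-0.13) and Slc25a38 (0.14, log2 differences). Without the hearts of RB033, RB034 and RB035, 0 carriers passed the threshold and 3 were below an unadjusted p of 0.05 (9.38%, against 8.85% of all genes), with Slc25a29 first (log2 difference 0.44, adjusted p = 0.439, against 0.21 with all hearts). Atrial sums in the hearts kept were 3089, 2955 and 509.8 FPKM with vehicle and 680.2, 1019, 3314 and 387.4 FPKM with MaR1. The part of atrial tissue in this comparison was not tested.

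**Figure D5:**
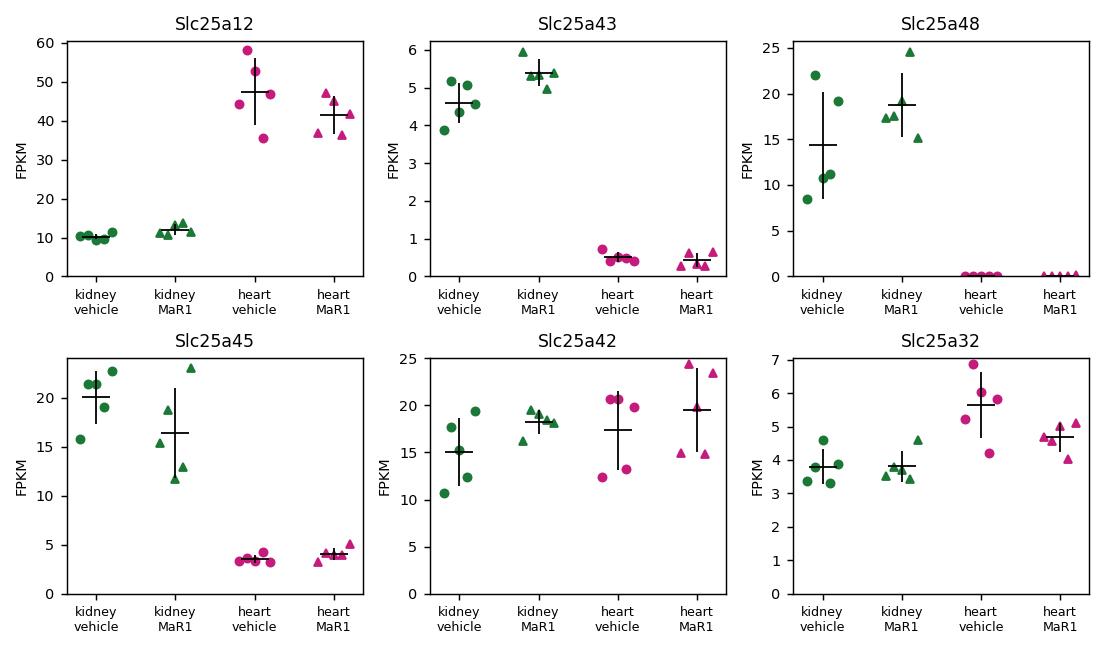
FPKM of 6 carriers by group (5 points each, with the mean and SD in black), taken from those of smallest p under MaR1. Slc25a12 lies between 9.459 and 13.65 FPKM in kidneys and 35.52 and 58.14 FPKM in hearts, and vehicle and MaR1 points overlap in every panel.

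The response to MaR1 was also compared between organs, as the heart response minus the kidney response. It differed for 0 of 34 carriers at the threshold and for 0.0% of 12984 genes. At an unadjusted p of 0.05 it differed for 2 carriers (5.88%, against 5.5% of genes), with voom calling 0. Slc25a12 had -0.40 (95% interval -0.73 to -0.07, adjusted p = 0.828) and Slc25a45 had 0.48 (0.04 to 0.92, adjusted p = 0.881). Slc25a43 (-0.35), Slc25a32 (-0.24) and Slc25a28 (0.17) followed by p. Among the genes beside the carriers, 0 passed the threshold with MaR1 in either organ. The smallest p there was that of Cpt1b in the kidney, the muscle form of carnitine palmitoyltransferase (2.05 ± 0.33 FPKM with vehicle, 6.52 ± 4.61 FPKM with MaR1, adjusted p = 0.588). Ucp1, the uncoupling protein of brown fat, was at 106.1 FPKM in the kidney of RB039 and 5.928 FPKM in that of RB036 and at most 0.442 FPKM in the other kidneys.

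The spread between animals was moderate. The median coefficient of variation of the tested carriers was 13.9% in vehicle kidneys (12.3% over all genes), 12.4% in MaR1 kidneys (10.7%), 16% in vehicle hearts (12.7%) and 16.5% in MaR1 hearts (13.1%). In vehicle kidneys it ran from 1.06% for Slc25a37 to 41% for Slc25a48.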

How the data were processed

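Messenger RNA was sequenced from 20 libraries, 1 per organ of 10 rats. The authors deposited FPKM values (fragments per kilobase of gene and per mega of library size). Tools named in the submitters' processing notes are fastp, HISAT2 2.0.5, StringTie 1.3.3b and featureCounts 1.5.0-p3. Neither the genome build nor the strand setting is given in the sources used here. Multiplied by gene length, 100% of 371175 values above 0 were whole fragments (within 0.01). The library sizes recovered in this way were proportional to median-of-ratios factors (within 8.88e-14%), not to the totals of assigned fragments.

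Genes averaging 1 FPKM or more in the libraries fitted were tested as log2(FPKM + 0.5) with limma 3.58.1 (R 4.3.3, variance trend, two-sided, adjusted p 0.05). The steps were also run on simulated data with a common spread, few changed genes and no mixture of tissues. That setting differs from these libraries, so nothing about the comparisons here is drawn from it. The members, role groups and gene lists were chosen with earlier results of these data known. Values were named for the 5 most abundant carriers per organ, the 10 largest organ differences in each direction, paralogue pairs and the 5 smallest p of each MaR1 comparison, and up to 3 genes per list. Slc25a29 in the heart without 3 libraries, 5 carriers in the kidney without 2 libraries and Chdh beside Slc25a48 were singled out after their values were seen. The values of 1 carrier tested are not reported here, though it is in the counts.

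Same-animal correlations of kidney and heart ran from -0.00947 to 0.179 over 10987 genes. The main model had no animal block, although both organs came from each rat, because no study method names one. Alternatives were pseudocounts of 0.1 and 1, no filter or 5 FPKM, total fragment and quantile scaling, limma voom, the animal as block, 1 treatment alone, and leaving out each animal. Joint models without the block, and leaving out libraries with high adipocyte or atrial markers, were added after seeing the data.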

Additional observations from a re-analysis of the deposited data

Results flagged for a closer look

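In 96 groups of 5 libraries, over 25 carriers, a single library stood far from the other 4 in 5 cases. Chance flags about 1 in 20 independent groups. The carriers tended to be low in the same libraries, so these groups were not independent and 5 of 96 was not weighed against that rate. All 5 cases were the highest MaR1 kidney. In the kidney of RB039, Slc25a20 was at 46.35 FPKM (33.34 to 36.74 FPKM in the other 4), Slc25a22 at 7.371 FPKM (3.818 to 4.755 FPKM) and Slc25a32 at 4.597 FPKM (3.443 to 3.777 FPKM). That kidney had a white adipocyte marker sum of 518.7 FPKM, and its part in these values was not tested. Slc25a25 was at 43.45 FPKM in the kidney of RB036 (30.69 to 34.11 FPKM). Slc25a28 was at 19.66 FPKM in the kidney of RB037 (15.25 to 16.2 FPKM).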

How the results depend on the processing

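The number of carriers called stayed within 1.5 times the main count under every alternative run: 26 (of 27 tested, with a filter at 5 FPKM) to 33 (of 41, with no filter) between organs and 0 in each MaR1 comparison. With the animal as replicate block, 31 carriers (of 11041 genes) were called between organs at an estimated correlation of 0.0621, and 0 carriers in the MaR1 comparisons, where the joint kidney model called 6 genes with and 7 without the block. The block changed no call of a carrier. Slc25a14 was called between organs with quantile scaling (adjusted p = 0.0374) and without the hearts of RB033, RB034 and RB035 (adjusted p = 0.0368).

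Signs turned in uncalled MaR1 differences near 0, and the cause was not tested. For Slc25a5 in the kidney, leaving out 1 animal at a time gave -0.057 (without RB030) to 0.077, and leaving out the kidneys of RB036 and RB039 gave -0.015. For Slc25a4 in the heart, quantile scaling gave -0.046 and leaving out 1 animal gave -0.051 to 0.202, with -0.051 without RB033, -0.035 without RB036 and -0.040 without RB039. For Slc25a5 in the heart, the range was -0.095 to 0.005 (without RB031), and leaving out the hearts of RB033, RB034 and RB035 gave -0.183, outside that range. Leaving out 1 animal put 0 to 5 carriers below an unadjusted p of 0.05 in the kidney, with 5 without RB039 (14.7%, against 14.1% of all genes). In the heart it put 0 to 3 there, with 3 without RB035 (9.38%, against 7.83%) and 2 without RB033 (6.25%, against 5.95%). Carriers under 1 FPKM rest on few fragments.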
